A study of Mus musculus with 14 samples.

Results

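The 10 genes described here encode the enzymes that buffer ATP in skeletal muscle and the kinase that senses its fall: Ckm, Ckmt2, Ak1, Ampd1, Ampd3, Prkaa1, Prkaa2, Prkab2, Prkag2 and Prkag3. They were chosen by gene symbol for their function, with earlier results of these data known. They were represented by 11 of the 55681 probes of the array and by 10 of the 14170 genes that could be tested. Expression was measured with 1-colour Agilent arrays, 1 per sample, in 14 hind limb muscle samples of mice. There were 3 samples per genotype of the EDL, the long digital extensor of the toes and a fast muscle, and 4 per genotype of the soleus, a slower postural muscle of the calf. Ts1Cje mice carry an extra copy of a segment of chromosome 16 and are used to model Down syndrome. The controls (WT) were C57BL/6 littermates without it. Age, sex and whether an EDL and a soleus came from the same mouse were not given in the sources used here. None of the 10 genes lies on chromosome 16.

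Creatine kinase stores the phosphate of ATP on creatine and returns it to ADP during contraction, with the muscle isoform in the cytosol and another isoform between the mitochondrial membranes. Adenylate kinase turns ADP into ATP and AMP, and AMP deaminase removes the AMP as the entry step of the purine nucleotide cycle. AMP-activated protein kinase (AMPK) is a trimer of a catalytic alpha, a scaffolding beta and a nucleotide-binding gamma subunit that responds to rising AMP and ADP. Fast fibres are known for large phosphocreatine and AMP deaminase capacity, and slow fibres for mitochondrial creatine kinase.

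Ckm and Ckmt2 are shown first by sequence because their levels leaned in opposite directions between the muscles, with Ckmt2 called in Ts1Cje alone. The following are their probes of 60 bases as printed in the array files, all in lower case. The mm9 positions in the files are chr7:20002222-20004829 on the plus strand for Ckm and chr13:91993242-91995390 on the minus strand for Ckmt2. These intervals span 2608 and 2149 bases, so both probes cross an intron and read spliced RNA.

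Ckm probe: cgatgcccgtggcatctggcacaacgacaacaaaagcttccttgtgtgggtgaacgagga

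Ckmt2 probe: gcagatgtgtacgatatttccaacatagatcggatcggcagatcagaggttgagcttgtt

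RefSeq promoter windows (GRCm38.p6, 250 bases before to 50 after a start site) were matched for 9 of the 10 genes, in 16 windows. Windows are printed for the same pair and for Prkab2 and Prkag3, the AMPK subunit genes with the widest gap between muscles. Capitals mark the E-box CANNTG, the core bound by myogenic factors, which reads the same pattern on both strands. The window of Ckm is chr7:19410844-19411143 on the plus strand and that of Ckmt2 is chr13:91876836-91877135 on the minus strand. Prkab2 is shown at chr3:97657962-97658261 on the plus strand and Prkag3 at chr1:74748906-74749205 on the minus strand.

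Ckm promoter: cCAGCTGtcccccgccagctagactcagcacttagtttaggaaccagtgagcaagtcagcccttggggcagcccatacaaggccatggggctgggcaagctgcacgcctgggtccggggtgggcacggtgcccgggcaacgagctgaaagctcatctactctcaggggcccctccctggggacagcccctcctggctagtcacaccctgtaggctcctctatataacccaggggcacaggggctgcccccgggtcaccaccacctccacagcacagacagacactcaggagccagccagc

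Ckmt2 promoter: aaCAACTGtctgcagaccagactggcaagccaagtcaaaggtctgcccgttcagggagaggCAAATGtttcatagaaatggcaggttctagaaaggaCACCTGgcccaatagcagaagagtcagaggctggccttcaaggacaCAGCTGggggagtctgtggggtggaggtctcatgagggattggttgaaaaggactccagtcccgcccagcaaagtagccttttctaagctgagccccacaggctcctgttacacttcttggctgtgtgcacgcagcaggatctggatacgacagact

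Prkab2 promoter: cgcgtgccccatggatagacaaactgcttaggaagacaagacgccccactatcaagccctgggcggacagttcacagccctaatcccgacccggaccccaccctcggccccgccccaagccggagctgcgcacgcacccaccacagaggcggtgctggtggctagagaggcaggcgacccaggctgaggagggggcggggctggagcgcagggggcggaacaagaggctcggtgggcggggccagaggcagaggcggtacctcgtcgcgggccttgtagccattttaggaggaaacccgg

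Prkag3 promoter: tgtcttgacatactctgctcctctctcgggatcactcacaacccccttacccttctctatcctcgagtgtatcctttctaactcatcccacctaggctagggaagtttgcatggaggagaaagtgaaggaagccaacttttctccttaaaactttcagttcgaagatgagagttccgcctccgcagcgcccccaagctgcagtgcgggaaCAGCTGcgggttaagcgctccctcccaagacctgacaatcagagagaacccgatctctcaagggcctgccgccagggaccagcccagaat

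The Ckm window held 1 E-box, that of Ckmt2 held 4, that of Prkag3 held 1 and that of Prkab2 held 0. For scale, 72.3% of the 32851 promoter windows of that length held at least 1 E-box, with a median of 1. The windows of Prkaa1 and Prkaa2 held 0. The letters AAGGTCA, read by estrogen-related receptors, was found on either strand in 4.72% of all windows and here in 1 window each of Ak1 and Prkag2. The MEF2 site was found in 3.19% of all windows and here in 1 window of Ak1. No motif matches in these windows overlapped. These matches describe letters and were not tested for binding.

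Levels are given as log2 of the background-subtracted signal relative to the 75th percentile of each array. They compare groups for 1 gene and do not rank genes against each other. The 75th percentile lay between 62.4 and 144 intensity units, between 41.3% and 52.9% of probes were well above background, and 0 probes were saturated. Arrays of the same group correlated between 0.979 and 0.988 across genes. Of the 10 genes, 9 were well above background on 14 of 14 arrays, and Ampd3 is the exception described below. Differences were tested with limma on all 14 arrays, with a gene called at an adjusted p under 0.05 over 14170 genes. All 6 EDL samples were hybridised on slide 1 together with a single soleus sample, Ts1Cje replicate 1, while slide 2 carried the remaining 7 soleus samples, so slide and muscle largely coincide. The p-values measure the spread between these samples only.

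Of the 10 fast fibre markers, 8 were called higher and 1 lower in the EDL in both genotypes, and all 8 slow fibre markers were called lower. The one fast marker that was lower was Myh2, the IIa myosin heavy chain (log2 -2.28 in WT, limma adjusted p = 0.00235), and Myh1, the IIx myosin heavy chain, was not called (0.34, adjusted p = 0.232). Myh7, the slow myosin heavy chain, lay between log2 10.08 and 10.66 in the 8 soleus samples and between -0.02 and 6.44 in the 6 EDL samples. EDL WT replicate 2 stood apart at -0.02, against 6.44 and 5.74 in the other WT EDL samples. The summed level of the 8 slow fibre markers lay between log2 5.31 and 8.85 in EDL WT, 5.65 and 8.33 in EDL Ts1Cje, 12.60 and 12.91 in soleus WT, and 12.72 and 13.23 in soleus Ts1Cje. For the 10 fast fibre markers the ranges were 14.05 to 14.52, 14.09 to 14.42, 13.17 to 13.37 and 12.89 to 13.31 in the same order. Of 5 measured adipocyte markers, 1 (Fabp4) was called lower in the EDL in WT and 5 in Ts1Cje, beside 9.76% and 12.4% of all genes. Plin1, 1 of these 5, entered the test only through the soleus. It was well above background on 1 WT EDL array and 0 Ts1Cje EDL arrays. The mean levels of the adipocyte markers overlapped, between log2 -0.00 and 2.76 in the EDL and between 1.54 and 3.51 in the soleus. Macrophage markers had mean levels between 0.17 and 0.60 in the EDL and between 0.67 and 1.36 in the soleus, with no overlap. Of these 6, C1qa and C1qb were called lower in the EDL in WT and C1qb in Ts1Cje. Of 5 Schwann cell markers, Mbp was called lower in the EDL (-1.54 in WT, -1.11 in Ts1Cje). The part of these cells in the differences between muscles was not tested. Of the neuronal and glial markers, 1 of 4 was measured, and Syt1 was not well above background on any array, nor was Mybpc3 of the cardiac list. Each muscle is a mixture of cells, so fewer fibres of a type and less RNA per fibre cannot be told apart in any result below.

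The comparison of the EDL with the soleus asked how the energy-buffering genes are set in a fast and a slower muscle. Of the 9 genes well above background on every array, 7 were higher in the EDL and 0 lower in WT mice, and 7 were higher and 1 lower in Ts1Cje mice. The tenth, Ampd3, was called lower in the EDL in both genotypes, but it entered the test only through the soleus and was not called with normexp background correction. The widest gaps were in 2 AMPK subunit genes, Prkab2 (7.31-fold in WT) and Prkag3 (5.60-fold). The cytosolic enzymes of creatine and adenylate turnover, Ckm, Ak1 and Ampd1, were higher in the EDL by between 1.74 and 3.66-fold in WT. Ckmt2 was the gene called lower in Ts1Cje. The difference of Ckmt2 between genotypes in this gap was itself not called (limma adjusted p = 0.989).

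**Figure D1:**
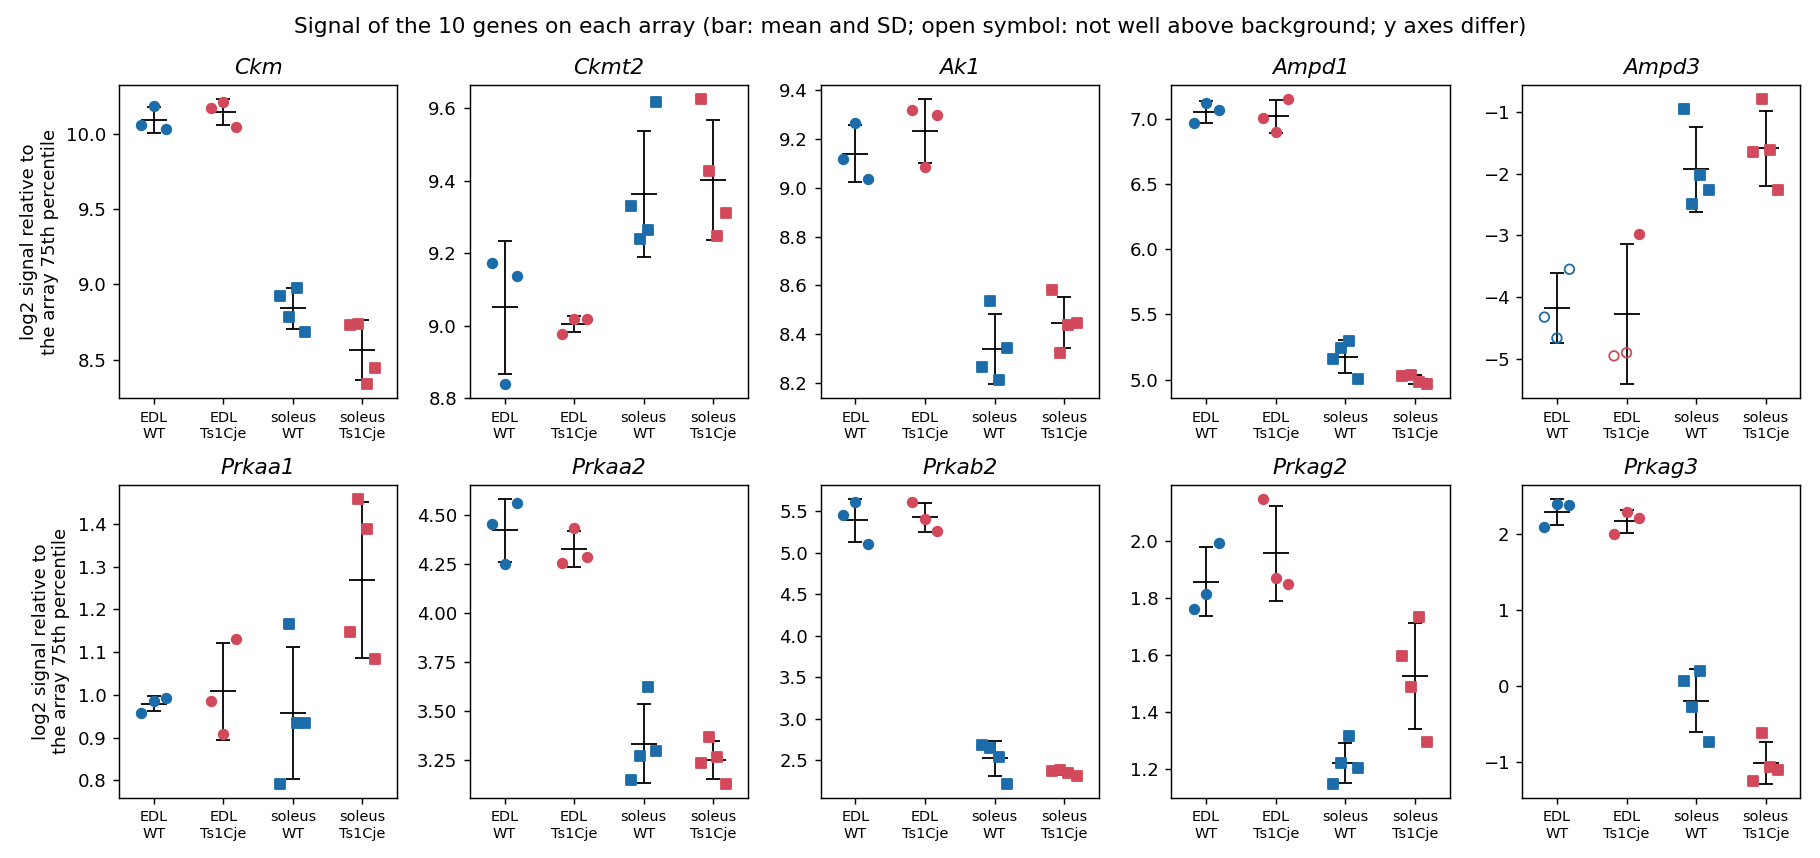
Log2 signal of each gene relative to the array 75th percentile (y axis, scaled separately per gene) on each of the 14 arrays, by group (x axis); bars are the mean and SD and open symbols are spots not well above background. Prkab2 lay between 5.10 and 5.61 in the EDL and between 2.22 and 2.69 in the soleus, with no overlap.

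These counts stand beside 29.8% of all genes called between the muscles in WT and 29.9% in Ts1Cje. By direction, 20% of genes were higher and 9.76% lower in the EDL of WT, and 17.5% were higher and 12.4% lower in Ts1Cje. The median difference of the 10 genes was log2 0.95 in WT and 0.93 in Ts1Cje, beside 0.07 and 0.01 over all genes. The EDL and soleus groups did not overlap for 38.9% of all genes in WT and 35.3% in Ts1Cje. With slide as a block, 5 of the 10 genes were called in WT (Ckm, Ampd1, Prkaa2, Prkab2 and Prkag3), and the same 5 were called within slide 1 in Ts1Cje. That correction rests on soleus Ts1Cje replicate 1 alone, and the WT muscles share no slide, so in WT no value within a slide could be had.

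Ckm, the cytosolic creatine kinase of muscle, was higher in the EDL in both genotypes. WT EDL samples read log2 10.06, 10.19 and 10.03, and WT soleus samples read 8.92, 8.78, 8.98 and 8.68. In Ts1Cje the EDL read 10.17, 10.21 and 10.05 and the soleus 8.73, 8.74, 8.34 and 8.45. Every EDL sample was above every soleus sample. The EDL was 2.38-fold higher in WT (log2 1.25 ± 0.12 SE, limma adjusted p = 1.43e-05) and 2.99-fold higher in Ts1Cje (1.58 ± 0.12, adjusted p = 1.71e-06). Quantile normalization gave log2 0.72 and 1.06, with the call kept in both.

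Ckmt2, the sarcomeric mitochondrial creatine kinase, leaned the other way. Its WT levels were log2 9.17, 8.84 and 9.14 in the EDL and 9.33, 9.24, 9.26 and 9.62 in the soleus. In Ts1Cje they were 8.98, 9.02 and 9.02 against 9.63, 9.43, 9.25 and 9.31. All soleus samples lay above all EDL samples of either genotype, by narrow margins. The difference was log2 -0.31 ± 0.13 in WT (limma adjusted p = 0.0824), which missed the threshold, and -0.40 ± 0.13 in Ts1Cje (adjusted p = 0.0319), where Ckmt2 fell in the EDL. Without EDL WT replicate 2, the sample of lowest Myh7, the WT value was -0.21. The size depended on scaling: quantile normalization gave -0.79 in WT and -0.98 in Ts1Cje, both called, while leaving out EDL Ts1Cje replicate 1, 2 or 3 or soleus Ts1Cje replicate 1 or 2 ended the Ts1Cje call (adjusted p = 0.0611 to 0.0929).

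Ak1, the main cytosolic adenylate kinase of muscle, was 1.74-fold higher in the EDL of WT (log2 0.80 ± 0.11 SE, limma adjusted p = 0.000189) and 1.73-fold higher in Ts1Cje (0.79 ± 0.11, adjusted p = 0.000202). WT levels were log2 9.12, 9.27 and 9.04 in the EDL and 8.27, 8.54, 8.21 and 8.34 in the soleus. Those of Ts1Cje were 9.32, 9.08 and 9.30 in the EDL and 8.58, 8.32, 8.44 and 8.45 in the soleus. The muscles did not overlap. Quantile normalization shrank the difference to log2 0.29 in WT and 0.26 in Ts1Cje (adjusted p = 0.0342 and 0.0531), and the slide block gave 0.62 in WT (adjusted p = 0.0671).

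The 2 AMP deaminase genes leaned opposite ways, Ampd3 only by dim signals that entered the test through the soleus. Ampd1 is the skeletal muscle isoform, and its probe lies at chr3:102902649-102902708 (mm9). It read log2 6.96, 7.12 and 7.06 in the WT EDL and 5.16, 5.24, 5.29 and 5.01 in the WT soleus. The Ts1Cje EDL read between 6.90 and 7.15 and the Ts1Cje soleus 5.03, 5.04, 4.98 and 4.97. The gap between muscles was many times the spread within a group, at 3.66-fold in WT (log2 1.87 ± 0.10 SE, limma adjusted p = 1.46e-07) and 4.03-fold in Ts1Cje (2.01 ± 0.10, adjusted p = 4.90e-08). Ampd1 stayed between log2 1.67 and 1.87 in WT under the alternative scalings and background correction.

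Ampd3, the isoform known from red blood cells and other tissues, was dim. The probe standing for it was well above background on 4 of 4 samples of both soleus groups, on 0 of 3 of the WT EDL and on 1 of 3 of the Ts1Cje EDL. A second probe, at chr7:117938163-117938222 (mm9), was well above background on 0 of 14 arrays and gave no level. By the first, at chr7:117954980-117955039, the WT soleus read log2 -0.95, -2.50, -2.01 and -2.27 and the Ts1Cje soleus -1.65, -0.79, -1.63 and -2.27. In the EDL the readings were -4.32, -4.66 and -3.55 in WT and -4.95, -4.90 and -2.97 in Ts1Cje. All EDL samples lay below all soleus samples. No WT EDL sample was well above background, so its level is only an approximate limit. Set at the lowest signal well above background on each array, that limit put Ampd3 roughly 2.01-fold or more lower in the EDL than in the soleus of WT mice. The fitted difference was log2 -2.25 ± 0.52 (limma adjusted p = 0.00568), for a gene kept only because of its soleus signals. In Ts1Cje, with 1 of 3 EDL samples measured, the fitted difference was log2 -2.69 ± 0.52 (adjusted p = 0.00186). With normexp background correction, which pulls dim spots together, the values were -0.26 and -0.38 and neither was called (adjusted p = 0.259 and 0.0723). Of 6 measured red blood cell markers, 1 (Slc4a1) was called between the WT muscles, higher in the EDL, and their mean level lay between log2 3.21 and 4.77 in the EDL and between 3.48 and 4.28 in the soleus. The part of blood content in the Ampd3 values was not tested.

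The catalytic subunits of AMPK differed from each other. Prkaa2, the alpha2 subunit that prevails in muscle, was 2.13-fold higher in the EDL of WT (log2 1.09 ± 0.12 SE, limma adjusted p = 4.36e-05) and 2.11-fold higher in Ts1Cje (1.08 ± 0.12, adjusted p = 4.28e-05). Its levels were log2 4.46, 4.25 and 4.56 in the WT EDL, 4.26, 4.43 and 4.29 in the Ts1Cje EDL, 3.15, 3.27, 3.62 and 3.29 in the WT soleus and 3.23, 3.36, 3.26 and 3.13 in the Ts1Cje soleus. No soleus sample reached any EDL sample. Prkaa1, the widely expressed alpha1 subunit, read 0.96, 0.99 and 0.99 in the WT EDL and 0.79, 1.17, 0.93 and 0.93 in the WT soleus, and the groups overlapped. The difference was log2 0.02 in WT, with a 95% interval from -0.23 to 0.28, which leaves out a gap of the size seen for Prkaa2. This sign turned to -0.04 with normexp and -0.05 with quantile normalization. The Ts1Cje EDL samples read 0.98, 0.91 and 1.13, of which the highest overlapped the Ts1Cje soleus. In Ts1Cje the Prkaa1 difference was -0.26 ± 0.12 (adjusted p = 0.115).

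Among the regulatory subunits, Prkab2, which encodes beta2, had the widest gap of the 10 genes in WT. WT samples read log2 5.46, 5.61 and 5.10 in the EDL and 2.69, 2.65, 2.53 and 2.22 in the soleus. Ts1Cje samples read 5.61, 5.41 and 5.26 in the EDL and 2.37, 2.38, 2.34 and 2.31 in the soleus. All values of a muscle lay far from those of the other. The fold was 7.31 in WT (log2 2.87 ± 0.14 SE, limma adjusted p = 1.35e-07) and 8.45 in Ts1Cje (3.08 ± 0.14, adjusted p = 4.46e-08). With slide as a block the values were 2.84 and 3.05, and within slide 1 the Ts1Cje value was also 3.05.

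Prkag3 encodes gamma3, a nucleotide-binding subunit known from glycolytic muscle. WT levels were log2 2.10, 2.40 and 2.39 in the EDL and 0.07, -0.28, 0.19 and -0.74 in the soleus. In Ts1Cje they were 2.01, 2.29 and 2.21 in the EDL and -1.24, -0.61, -1.07 and -1.11 in the soleus. The lowest EDL sample (2.01) lay well above the highest soleus sample (0.19), and the soleus samples were spread more widely. The EDL was 5.60-fold higher in WT (2.48 ± 0.21 SE, limma adjusted p = 5.62e-06) and 9.05-fold higher in Ts1Cje (3.18 ± 0.21, adjusted p = 5.35e-07). Normexp correction gave smaller gaps of log2 1.84 and 2.14, both called.

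Prkag2, the gamma2 subunit best known from the heart, differed less. Its levels were log2 1.76, 1.81 and 1.99 in the WT EDL, 2.15, 1.87 and 1.85 in the Ts1Cje EDL, 1.15, 1.22, 1.32 and 1.20 in the WT soleus and 1.60, 1.49, 1.73 and 1.29 in the Ts1Cje soleus. The muscles did not overlap within a genotype, and the Ts1Cje soleus came closest to the EDL. The EDL was 1.55-fold higher in WT (log2 0.63 ± 0.12 SE, limma adjusted p = 0.00172) and 1.35-fold higher in Ts1Cje (0.43 ± 0.12, adjusted p = 0.0171). The Ts1Cje call was lost with normexp (0.19, adjusted p = 0.316), with slide as a block (0.36, adjusted p = 0.219) and without EDL Ts1Cje replicate 1 (0.33, adjusted p = 0.0905). The WT call was lost with slide as a block (0.54, adjusted p = 0.14).

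**Figure D2:**
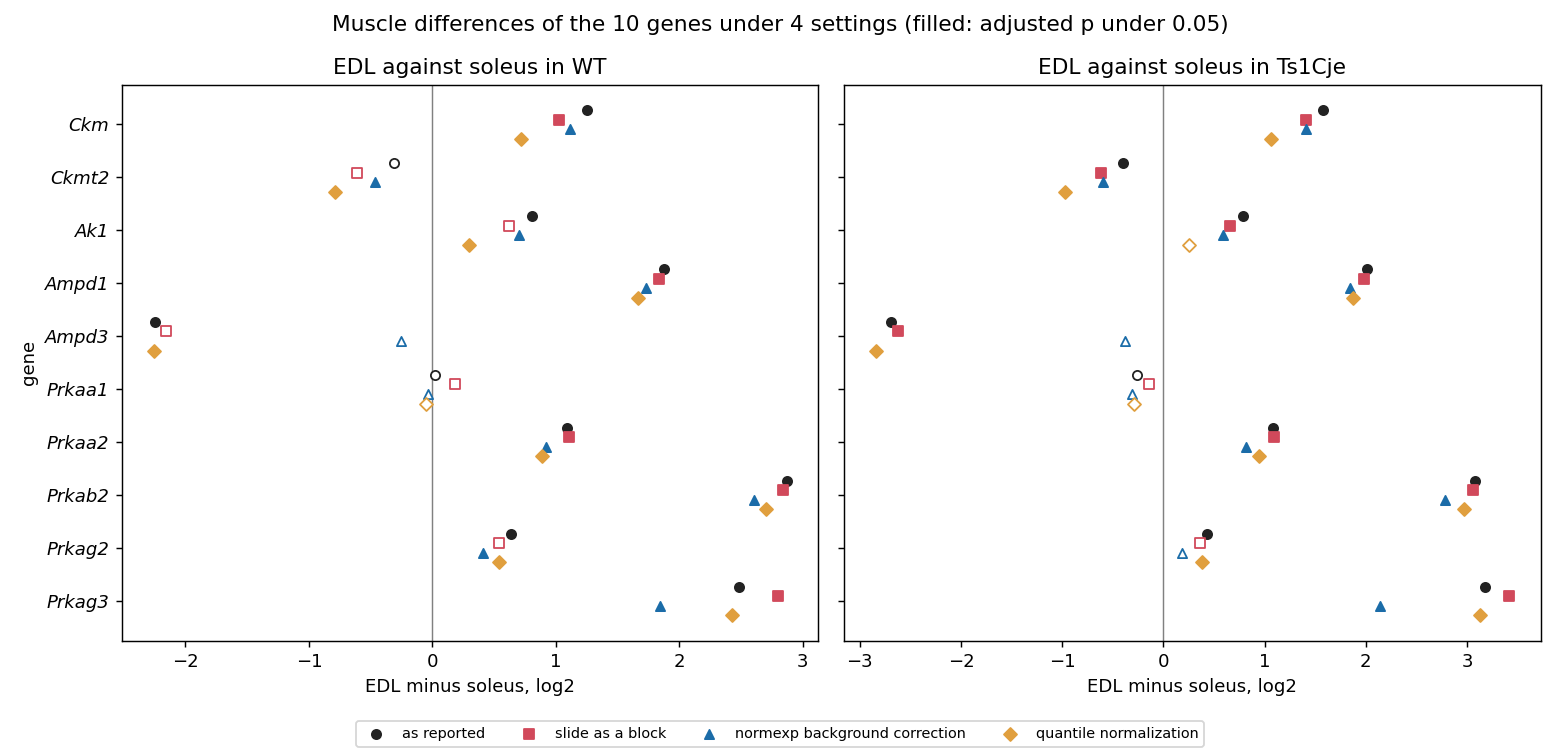
EDL minus soleus difference (x axis, log2) of each gene (y axis) in WT (left) and Ts1Cje (right), as reported, with slide as a block, with normexp background correction and with quantile normalization; filled symbols were called. Prkab2 and Ampd1 hardly moved in WT (2.60 to 2.87 and 1.67 to 1.87), while Ampd3 went from -2.25 to -0.26 with normexp.

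The 2 other AMPK subunit genes, Prkab1 and Prkag1, were not called between the muscles in either genotype, and their median was log2 0.12 in WT and 0.15 in Ts1Cje. For Prkaa2, Prkab2 and Prkag3, the EDL groups of both genotypes held the higher levels and overlapped each other. The soleus groups held the lower levels and also overlapped each other.

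Genes around this set were described from lists by function. Of 5 genes of creatine supply and other creatine kinases, 3 were higher and 0 lower in the EDL of WT: Gamt (log2 0.81), which finishes creatine synthesis, Gatm (0.82), which starts it, and Ckb (0.51), the brain-type creatine kinase. In Ts1Cje, Ckb (0.82) and Gamt (0.87) were higher. The list had a median of 0.51 in WT, beside 0.07 over all genes. Its shares called, 60% in WT and 40% in Ts1Cje, stand beside 29.8% and 29.9% of all genes. With normexp, Gamt alone of this list was called in WT, and Gatm (0.33) and Ckb (0.37) were not. Ckb (0.31) was not called in WT with quantile normalization either. Of 4 measured genes among 7 other adenylate kinases, Ak4 (1.54), Ak6 (1.03) and Ak3 (0.45) were higher in WT, and Ak6 (0.90) alone was called in Ts1Cje. The shares called of these kinases were 75% in WT and 25% in Ts1Cje, the latter not above that of all genes. With normexp Ak3 (0.30) was not called in WT. With slide as a block, 0 of the creatine list and 1 of these kinases, Ak6, were called in WT.

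In the purine nucleotide cycle and AMP turnover list, 17 of 18 genes were measured, with 2 higher and 2 lower in the EDL of WT. That is 23.5% called in WT, and 35.3% in Ts1Cje, near the 29.8% and 29.9% of all genes. Adssl1, the muscle adenylosuccinate synthase that acts after Ampd1, was higher (log2 1.04 in WT, 1.17 in Ts1Cje), as was Impdh2 (0.34 and 0.36), of guanine nucleotide synthesis. Nt5c2, a cytosolic nucleotidase, was lower (-1.26 and -1.19), as was Ampd2 (-0.40 and -0.38), the AMP deaminase of non-muscle tissue. In Ts1Cje, Nt5c1a (0.59), a nucleotidase that acts on AMP, and Gmpr (0.62), which turns GMP into IMP, were also higher. Nt5c1a entered the test only through the Ts1Cje EDL, the group in which it was called higher. With normexp Nt5c1a stood at 0.30 and Gmpr at 0.41, and neither was called, nor with slide as a block (0.55 and 0.18). Adssl1, Nt5c2 and Ampd2 were called in WT with slide as a block as well.

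Upstream of AMPK, 14 genes were measured, with 2 higher and 1 lower in the EDL of WT. The shares called, 21.4% in WT and 28.6% in Ts1Cje, were not above those of all genes (29.8% and 29.9%). Stk11, the kinase LKB1 that phosphorylates AMPK, stood at log2 0.34, and Stradb, a pseudokinase partner of it, at 0.61. Camkk1, a calcium-dependent kinase, was lower at -1.11 but was well above background on only 1 of 3 WT EDL arrays, and normexp gave -0.15. In Ts1Cje, Strada (0.45) and Stradb (0.54) were higher, and Fnip2 (-0.81), a folliculin partner, and Camkk1 (-0.99) were lower. Camkk1 was well above background on 2 of 3 Ts1Cje EDL arrays. It entered the test only through the soleus, the muscle in which it was called higher in both genotypes. With normexp 0 of the 14 were called in either genotype.

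Of 19 measured genes among 21 AMPK substrates and downstream genes, 5 were higher and 2 lower in the EDL of WT, with the same counts in Ts1Cje. The share called was 36.8%, beside 29.8% of all genes in WT and 29.9% in Ts1Cje. The related regulators of glucose transporter traffic went opposite ways: Tbc1d1 was higher (log2 1.67 in WT, 1.71 in Ts1Cje) and Tbc1d4 lower (-1.16 and -1.35). Slc2a4, the insulin-responsive glucose transporter, was higher (0.63 and 0.50), as were Mff (0.50 and 0.49), a mitochondrial fission factor, and Ulk1 (0.71 and 0.70), a starter of autophagy. Pfkfb3, which makes the activator of phosphofructokinase, was higher (2.17 and 2.05), and Rptor (-0.41 and -0.46), a subunit of the growth kinase mTORC1, was lower. With slide as a block, 3 of the 19 were called in WT and 4 in Ts1Cje. Of the genes named here, Tbc1d1 and Slc2a4 kept the call in WT. Pfkfb3 was called in neither genotype, at 1.32 in WT and 1.41 in Ts1Cje.

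The mitochondrial list held 8 genes: carriers of ADP, ATP and phosphate, outer membrane channels and Atpif1, which is not a carrier. Of these 8, 4 were higher and 0 lower in the EDL of WT (50%, beside 29.8% of all genes). This direction depended on scaling: with quantile normalization 2 were higher (Slc25a25 and Vdac3) and 2 lower, the phosphate carrier Slc25a3 (log2 -0.40) and Slc25a4 (-0.36), an ADP and ATP carrier. The outer membrane channel genes Vdac3 (log2 0.69) and Vdac2 (0.42) were higher, as was Slc25a25 (1.56), a calcium-regulated ATP and phosphate carrier, and Vdac1 stood at 0.39 but at -0.12 with quantile normalization. In Ts1Cje, Slc25a25 (1.89), Vdac3 (0.64), Vdac1 (0.38, but -0.13 with quantile normalization) and Vdac2 (0.36) were higher in the EDL. Slc25a3 (-0.33) and Slc25a5 (-0.67), another ADP and ATP carrier, were lower. Vdac3 and Slc25a25 were the 2 called in WT with slide as a block.

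**Figure D3:**
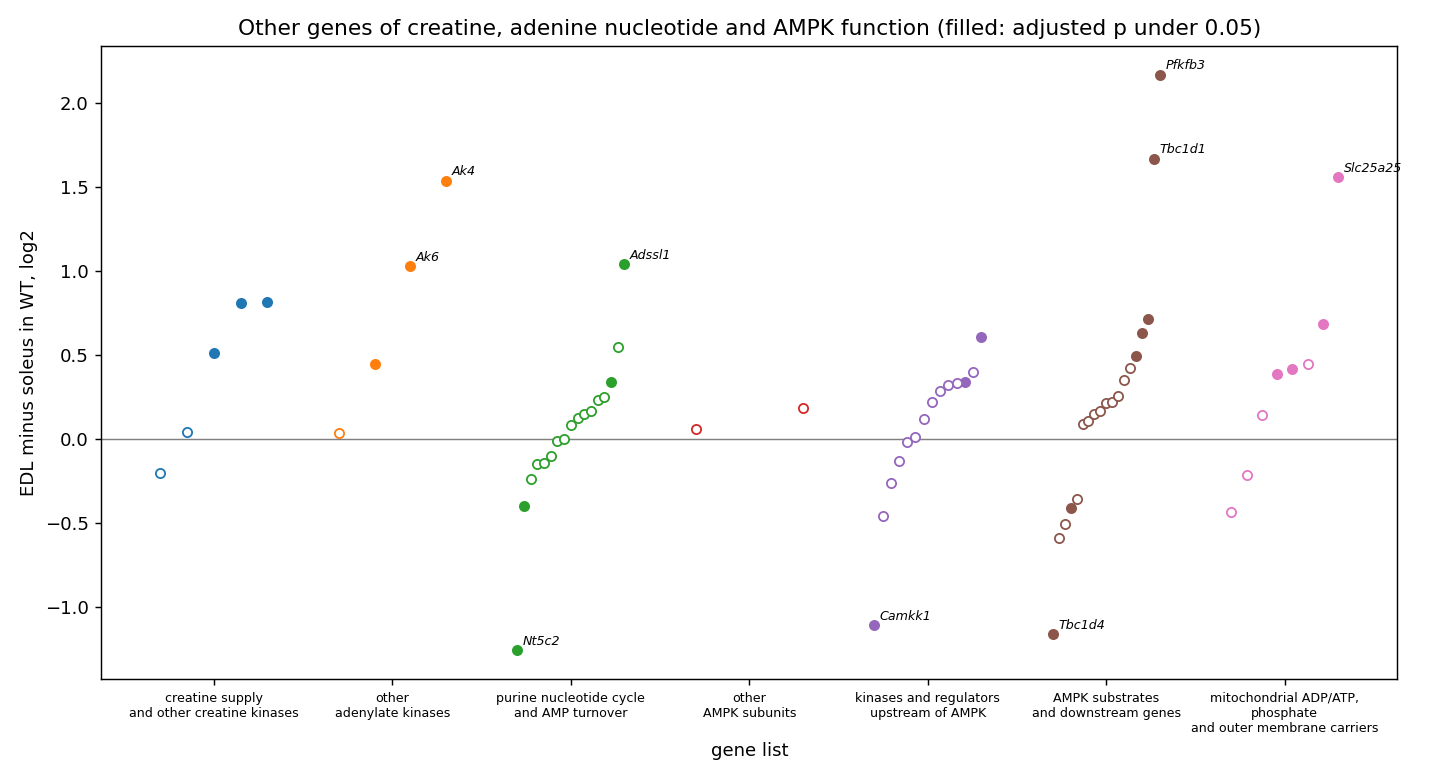
EDL minus soleus difference in WT (y axis, log2) of the measured genes of each functional list (x axis), 1 point per gene, filled where called and named where called and beyond 1 on the log2 scale. Pfkfb3 (2.17) and Tbc1d1 (1.67) are the highest points, and Nt5c2 (-1.26) and Tbc1d4 (-1.16) the lowest. Pfkfb3 and Tbc1d4 were not called in WT with slide as a block.

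The comparison of Ts1Cje with WT asked whether the trisomy alters these genes in either muscle. In the EDL, 0 of the 10 genes were called, beside 0.00706% of all genes (1 of 14170). By unadjusted p under 0.05 from limma, 0 of the 10 and 408 of all genes passed. Of the 10 genes, 5 lay above 0 and 5 below, and Ampd3 aside the differences ran from log2 -0.13 (Prkag3) to 0.10 (Prkag2). The 95% intervals bound what could have been missed: that of Ckm ran from -0.23 to 0.33, that of Ampd1 from -0.26 to 0.19 and that of Prkab2 from -0.29 to 0.37. Ampd3 was hardly bounded, at -0.10 ± 0.55 SE. The functional lists had 0 genes called.

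In the soleus, 0 of the 10 genes were called as well, beside 0.247% of all genes (35 of 14170), with 0.176% higher and 0.0706% lower in Ts1Cje. That count of all genes was itself unstable, at 10 to 28 with 1 sample left out and 1 within slide 2. By unadjusted p under 0.05, 4 of the 10 and 1929 of all genes passed. These were Prkag3 (log2 -0.82 ± 0.19 SE), Prkaa1 (0.31 ± 0.11), Prkag2 (0.30 ± 0.11) and Ckm (-0.28 ± 0.11), with limma adjusted p-values of 0.166, 0.291, 0.301 and 0.331. Ts1Cje soleus samples read 1.15, 1.46, 1.39 and 1.08 for Prkaa1, against 0.79, 1.17, 0.93 and 0.93 in WT. The genotype groups overlapped for all 4 genes. Over all genes the genotype groups did not overlap for 8.39% in the soleus and 5.6% in the EDL, and of the 10 genes for 0 in either muscle.

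**Figure D4:**
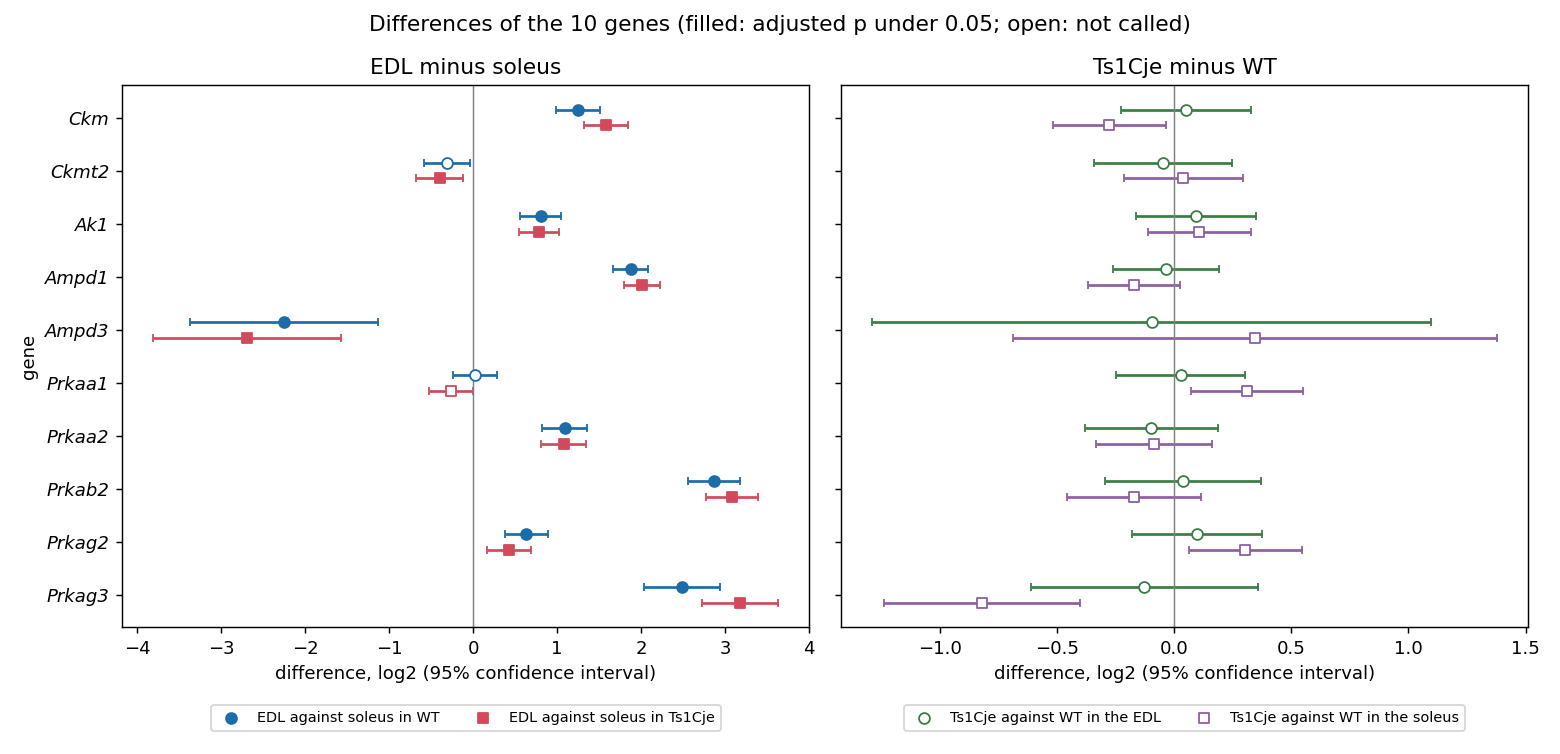
Differences (x axis, log2) with 95% confidence intervals for each gene (y axis): EDL minus soleus on the left and Ts1Cje minus WT on the right; filled symbols were called. No genotype difference was called, and the soleus interval of Prkag3 ran from -1.24 to -0.40.

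Prkag3 was the member furthest from 0 by genotype in the soleus, at 1.76-fold lower in Ts1Cje. WT soleus replicate 4, at log2 -0.74, fell below Ts1Cje replicate 2, at -0.61, and the other WT samples lay above all Ts1Cje samples. Without WT replicate 4 the difference was -1.003 (limma adjusted p = 0.0503), the lowest adjusted p of that difference over the alternatives, and with normexp it was -0.43 (adjusted p = 0.39). Fast fibre genes moved in the same samples. Actn3, the fast fibre actinin, read 6.39, 6.10, 6.45 and 5.13 in the WT soleus and 3.54, 3.93, 4.56 and 4.25 in the Ts1Cje soleus. Myh4, the myosin heavy chain of the fastest fibres, read 9.67, 9.26, 9.83 and 8.79 against 5.69, 7.07, 4.42 and 3.88.

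Both genes had their lowest WT soleus reading in replicate 4, as Prkag3 did. So did Ckm (8.68), Ampd1 (5.01) and Prkab2 (2.22), so this was not particular to Prkag3. That array also had the lowest 75th percentile (83.7) of the WT soleus arrays. In the Ts1Cje soleus, Actn3 was highest in replicate 3 (4.56) and Prkag3 in replicate 2 (-0.61). Of the 10 fast fibre markers, 3 fell in the Ts1Cje soleus, namely Myh4 (log2 -4.12), Actn3 (-1.95) and Pvalb (-1.86), the calcium buffer parvalbumin, and 0 of 8 slow fibre markers were called. The mean of the fast list lay between 8.45 and 8.87 in WT and between 7.66 and 7.95 in Ts1Cje, with no overlap. The part of fibre composition in the Prkag3 difference was not tested.

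**Figure D5:**
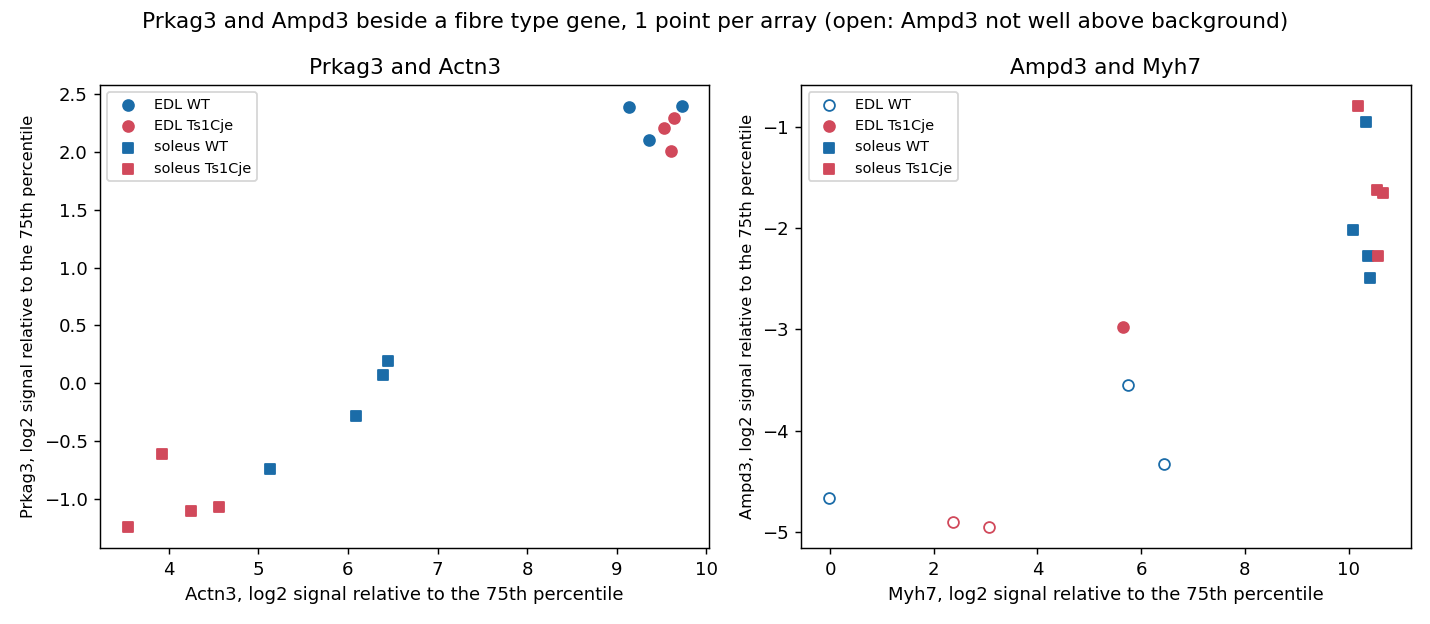
Log2 signal of Prkag3 against that of Actn3 (left) and of Ampd3 against that of Myh7 (right), each relative to the array 75th percentile, 1 point per sample; open symbols are Ampd3 readings not well above background. Within the soleus, the WT sample of lowest Actn3 (5.13) also had the lowest Prkag3 (-0.74) of its group. The Ts1Cje sample of highest Actn3 (4.56) read -1.07 for Prkag3, below the highest of its group (-0.61).

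Whether the genotype effect differed between the muscles was tested directly, and 0 of the 10 genes were called, beside 0% of all genes. By unadjusted p under 0.05 from limma, 454 of all genes and 1 of the 10 passed. That was Prkag3, at log2 0.69 ± 0.30 SE (adjusted p = 0.988), from -0.13 in the EDL and -0.82 in the soleus. Ckm stood at 0.33 ± 0.17 and Prkaa1 at -0.28 ± 0.17. The muscle and genotype comparisons share samples, so their values are set side by side and are not independent of each other.

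For each gene, the closest patterns over the 14 samples were named by Pearson correlation across all tested genes, as a description. The 14 points fall into the 2 muscles, which sets most of each value where the muscles differ. Prkaa1 was not called between the muscles in either genotype, so this does not hold for it. Ckm was closest to Pgk1 (0.993), the glycolytic phosphoglycerate kinase, then Sema4d and Casq1, the calcium store protein calsequestrin of fast fibres. Ampd1 was closest to Pgm1 (0.996), Ccdc91 and Myoz1, and Ak1 to Prxl2b (0.994), Cnih1 and Eif4a2. Ckmt2 was closest to Nceh1 (0.947), Bin3 and Nudt7, and Ampd3 to Ankrd2 (0.979), Actn2 and Wfs1.

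The AMPK subunits had separate nearest genes. Prkab2 was closest to Rtn2 (0.995), Gaa, the lysosomal glucosidase, and Reep1. Prkag3 was closest to Phkb (0.990), a subunit of phosphorylase kinase, Tlcd4 and Slc16a3, the lactate exporter. Prkaa2 was closest to Pfkm (0.983), the muscle phosphofructokinase, Fn3k and Gpd2. Prkag2 was closest to Surf4 (0.954), Prkacb and Slc35b1, and Prkaa1 to Cox5b (0.958), LOC102641600 and Txn2.

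After the group means were removed, the 14 samples gave much weaker relations among the 10 genes. The highest were 0.55 for Ckm with Prkag3 and for Ampd1 with Prkag3, and the lowest was -0.62 for Ak1 with Prkaa2.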

How the data were processed

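Each of the 14 RNA samples was read on 1 Agilent array in the Cy3 channel, per the labels. The deposited scanner files hold gProcessedSignal, a background-subtracted intensity with no scaling between arrays, made with Agilent Feature Extraction. The file headers name its release 11.5.1.1, whereas the submitters' processing notes name 9.1. The authors' deposited table holds log2 values, scaled to each array's 75th percentile and centred on each probe's median (column medians -0.193 to 0.254), and was used as an alternative. Recomputing it from scanner values gave correlations of at least 0.999998. Probe positions are mm9, per the file headers.

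Non-outlier spots of 1 probe were averaged, leaving out 3671 control spots, and values were log2 intensity minus the log2 75th percentile of the array. Of 55681 probes, 33822 carried a symbol in the files, 31796 matched the reference table by gene identifier, and 2138 symbols were updated. Probes had to be well above background throughout 1 or more groups (25190 probes), and the brightest such probe on average stood for its gene (14170 genes). The fit, by limma 3.58.1 under R 4.3.3, gave each group its own mean over 14 arrays (10 residual and 2.80 prior degrees of freedom), tested two-sided with Benjamini-Hochberg adjustment over all genes, after a run on simulated data. The number of arrays limits the precision. Where no array of a group was well above background, a fold is taken against the lowest signal well above background on each array, an approximate limit.

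The 10 genes, the 7 functional and 10 marker lists and the tests were chosen with earlier results of these data known. Genes named are the 10 members, the 3 closest in pattern to each and, of each functional list, up to 4 called genes of smallest p per comparison, while Ulk1, Pfkfb3, Rptor, Gmpr, Slc25a4, Slc25a5 and the marker genes were named after their values were seen. Deviations of same-numbered samples from their group means correlated between 0.12 and 0.40 across genotypes in the EDL and between 0.33 and 0.51 for the WT muscles. The labels do not say that these numbers pair samples. They were used as pairs only in the replicate block alternatives, and the reported fits are unpaired. Across genotypes in the soleus the correlations lay between -0.29 and 0.01, and for the Ts1Cje muscles between -0.16 and 0.12. Alternatives were normexp background correction (offset 50), quantile normalization, no filter, the mean of probes, slide and replicate blocks, single slides, 1 muscle alone, the authors' table, and leaving out each sample.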

Additional observations from a re-analysis of the deposited data

How the results depend on the processing

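Counts of the 10 genes called held in every alternative for both genotype comparisons and their difference, at 0. Between the muscles in WT the count was 5 with slide as a block and 8 or 9 otherwise, and between the muscles in Ts1Cje it was 5 within slide 1 and 7 to 9 otherwise. Signs turned only for differences that were not called. With quantile normalization Ckm in the EDL by genotype was -0.018, Prkaa1 between WT muscles -0.049 and the Prkaa2 interaction (genotype effect in the EDL minus that in the soleus) 0.049, and with normexp Prkaa1 between WT muscles was -0.036. With slide as a block Ckmt2 in the soleus by genotype was -0.035, as within slide 2, and the Ak1 interaction was 0.029. Leaving out 1 sample at a time, the genotype difference in the EDL ran from -0.099 to 0.027 for Ampd1, -0.75 to 0.24 for Ampd3, -0.15 to 0.016 for Ckmt2, -0.032 to 0.079 for Prkaa1 and -0.11 to 0.15 for Prkab2. In the soleus it ran from -0.035 to 0.12 for Ckmt2 and -0.15 to 0.010 for Prkaa2. For Prkaa1 between WT muscles the range was -0.032 to 0.092, and for the interaction -0.082 to 0.060 for Ak1 and -0.11 to 0.059 for Prkaa2. The cause was not tested. With the replicate block, 8 of the 10 genes were called between the muscles in either genotype, Prkag2 in Ts1Cje being lost at 0.35 (limma adjusted p = 0.0625), and 0 by genotype; it changed no other call of the 10 genes. Over all genes, the soleus genotype count of 35 went to 7 with the replicate block, 15 with normexp, 6 with no filter, 23 with the mean of probes, 18 with slide as a block, 4 from the soleus arrays alone, 1 within slide 2 and 10 to 28 leaving out 1 sample. The EDL count of 1 went to at most 3. Between the muscles, 4223 genes in WT went to 2281 with normexp and 1368 with slide as a block, and 4243 in Ts1Cje to 2070 with slide as a block and 957 within slide 1. Low signal over background limits Ampd3 in the EDL.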
